A study of Rattus norvegicus with 4 samples.

Results

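The genes described here encode the machinery that sets histone acetylation: zinc-dependent deacetylases (Hdac1 to Hdac11), sirtuins (Sirt1 to Sirt7), corepressor subunits, acetyltransferases and readers of acetylated lysine. They were taken by name, and a gene was kept when its counts over all libraries came to at least 40. Of 38 listed genes 37 were kept, among 12228 of 34034 genes in the table that reached the same total. Hdac9 was left out with 30 counts, and the members just inside the limit were Hdac11 with 55 counts and Kat2b with 84.

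The cells were mesenchymal stem cells from rat femurs, all held in osteogenic induction medium and sampled at day 1 after 24 h of treatment, in 1 batch. There were 4 conditions with 1 library each: senescent cells given trichostatin A (TSA) and phenamil, senescent cells given TSA alone, senescent cells given vehicle (senescent control), and young cells given vehicle (young control). No library held phenamil alone or young cells with a compound. Neither the doses nor the way senescence was reached is stated in the labels, and the series' design text names benzyl ether where the sample labels name phenamil. The labels were followed, and the series title gives the compounds as trichostatin A and phenamil methanesulfonate.

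Acetyl groups on histone tails loosen chromatin and are bound by bromodomain proteins, and their level is the balance between acetyltransferases that add them and deacetylases that remove them. Class I deacetylases (Hdac1, Hdac2, Hdac3 and Hdac8) work mostly in the nucleus, where Hdac1 and Hdac2 are the catalytic core of the SIN3, NuRD and CoREST corepressor complexes and Hdac3 that of the NCOR complex. Class IIa enzymes (Hdac4, Hdac5, Hdac7 and Hdac9) shuttle between nucleus and cytoplasm and hold back MEF2 and RUNX transcription factors, the reason they are studied in bone and cartilage. TSA is a hydroxamic acid that occupies the zinc-containing active site of the classical deacetylases, whereas sirtuins use NAD and are not inhibited by it. Phenamil is a derivative of the diuretic amiloride that has been used to promote bone formation in stem cells.

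Libraries held 9873894 to 11024227 counts, which were scaled to CPM, the usual expression level corrected for library size. The libraries came from a kit that reads transcripts at their 3′ end, so CPM was not divided by length and levels of different genes are compared on that scale only. All 13 mesenchymal stromal markers were detected, with a summed level of 62466 CPM with TSA + phenamil, 50882 with TSA alone, 55442 in senescent control cells and 58460 in young control cells. Most of this sum came from the collagen gene Col1a1 (26684 to 33576 CPM), which had the same order of libraries. Not all markers shared that order. Vim had 7122 CPM with TSA + phenamil, 6972 with TSA alone, 6468 in senescent control cells and 6025 in young control cells. Summed leukocyte and macrophage markers (6 of 10 detected, with Itgam, Adgre1 and Cd163 among those at 0) were at 9.33 CPM with TSA + phenamil, 9.68 with TSA alone, 5.90 in senescent control cells and 5.14 in young control cells, most of it from Cd14. The part of these markers in the results was not tested. Endothelial markers (3 of 6 detected, Pecam1, Vwf and Emcn at 0) reached at most 0.381 CPM, erythroid markers (3 of 4, Hbb at 0) 1.62 CPM and adipocyte markers (3 of 5, Lep and Cidec at 0) 0.857 CPM. Chondrocyte markers (5 of 5) summed to 471 to 544 CPM, skeletal muscle markers (6 of 6) to 38.0 to 54.2 CPM and neuronal markers (5 of 5) to 61.0 to 74.7 CPM. Most of the muscle sum came from Acta1 (35.5 to 53.0 CPM), while Myod1 had at most 3 counts in a library. Most of the neuronal sum came from Map2 (55.9 to 69.5 CPM), while Rbfox3 had at most 5 counts. In bulk RNA, fewer cells of a type and less RNA per cell cannot be told apart. The linker histone gene H1f0 and the cell cycle inhibitor gene Cdkn1a are often used as readouts of deacetylase inhibition. H1f0 had 129 CPM with TSA + phenamil, 138 with TSA alone, 126 in senescent control cells and 118 in young control cells. With TSA alone it was higher, at 1.095 (95% counting interval 1.02 to 1.18) times the senescent control. Cdkn1a had 203 CPM with TSA + phenamil, 225 with TSA alone, 235 in senescent control cells and 237 in young control cells. With TSA + phenamil it was lower, at 0.865 (0.816 to 0.916) times the senescent control and 0.900 (0.848 to 0.955) times TSA alone. In the other comparisons of these genes the counting interval allowed either direction.

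Values are given as levels in CPM, and comparisons as ratios of CPM between 2 libraries, followed by the exact 95% counting interval in parentheses. The size rule used below asks for a ratio at least 25% above 1, or as far below 1 when inverted, with an interval that excludes 1. With 1 library per group no test was possible. Intervals cover counting error only, and each ratio describes a pair of libraries and not the conditions at large.

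In the senescent control set against the young control, more of these genes were lower than higher. By the size rule 8 of 37 were lower, or 21.6%, where 9.42% of all tested genes were, and 2 were higher, or 5.41%, where 9.46% of all tested genes were. Those lower were Hdac4, Hdac7, Sirt6, Ep300, Crebbp, Kat6a, Kat8 and Brd3, and those higher were Sirt7 and Hat1. The median log2 ratio of the 37 was -0.07, and over all tested genes it was 0.00. When cultures were assumed to vary with a coefficient of variation of 0.1, 4 were lower and 1 higher, where 10.3% of all tested genes passed in either direction.

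TSA alone was accompanied by few differences in the expression of the 37 genes. Set against the senescent control, 1 of 37 genes was higher by the size rule (Sin3a, 2.7%) and 1 was lower (Hdac5, 2.7%), where 8.06% and 8.08% of all tested genes were. Irrespective of size, 25 ratios lay under 1 and 12 above, and the median log2 ratio was -0.07, where that of all tested genes was 0.00. With the same assumed variation 0 of 37 passed, where 8.67% of all tested genes did.

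With TSA plus phenamil set against the senescent control, 3 of 37 genes were higher (Hdac7, Sirt4 and Sin3a, 8.11%) and 1 was lower (Kat2b, 2.7%), where 8.52% and 8.25% of all tested genes were. The median log2 ratio was 0.05, where that of all tested genes was 0.00. Set against TSA alone, 6 of 37 were higher in the TSA + phenamil library (Hdac5, Hdac7, Sirt4, Sirt6, Crebbp and Kat6b, 16.2%) and 0 were lower, where 10.1% and 9.16% of all tested genes were. The median log2 ratio was then 0.10, where that of all tested genes was 0.00. By total counts in place of TMM, 2 were higher and 2 lower against the senescent control, and 4 higher and 1 lower against TSA alone, where 17.1% and 19.5% of all tested genes passed in either direction. These comparisons share libraries with those above, so a high or low value in 1 library enters several of them. With the assumed variation 1 was higher and 1 lower against the senescent control, and 2 were higher against TSA alone, where 8.42% and 10.2% of all tested genes passed in either direction.

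**Figure D1:**
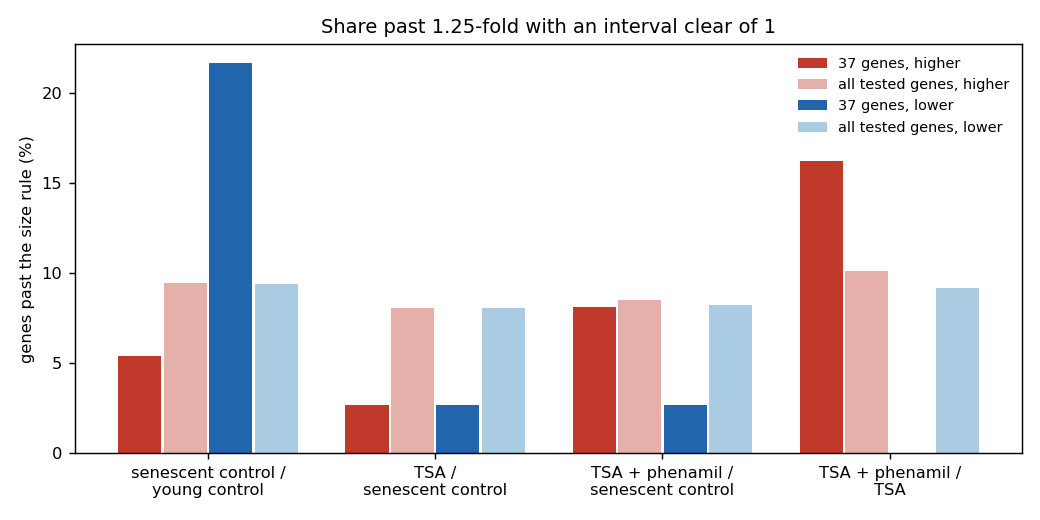
Percentage of genes past the size rule (y axis) in each of the 4 comparisons (x axis), higher (red) and lower (blue) in the library named first, for the 37 genes (dark bars) and all 12228 tested genes (pale bars). The share of lower genes in senescent control against young control, 21.6% of the 37 against 9.42% of all, and that of higher genes in TSA + phenamil against TSA, 16.2% against 10.1%, stand above the pale bars beside them. In TSA + phenamil against TSA, 4 of 37 were higher and 1 lower by total counts, where 19.5% of all passed either way. With an assumed coefficient of variation of 0.1, 2 were higher and 0 lower, where 10.2% of all passed.

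The order of the libraries was also counted. The TSA + phenamil library was the highest of the 4 for 10 of 37 genes, where it was so for 22.9% of all tested genes, and the lowest for 7, where the share over all was 22.7%. The TSA library was the highest for 4, against 28.0% of all, and the lowest for 15, against 28.6%. The senescent control was the highest for 7, against 21.6%, and the lowest for 7, against 20.6%. The young control was the highest for 16, against 27.5%, and the lowest for 8, against 28.1%. These spreads were narrow: the median ratio of the highest to the lowest library was 1.31 for these genes, against 1.33 over all tested genes, and their median level was 28.8 CPM, against 18.1 CPM.

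The 10 tested zinc-dependent deacetylases summed to 391 CPM with TSA + phenamil, 369 with TSA alone, 362 in senescent and 394 in young control cells. The senescent control was at 0.920 (0.881 to 0.960) times the young control. TSA alone was at 1.02 (0.975 to 1.07) times the senescent control. TSA + phenamil was at 1.08 (1.03 to 1.13) times the senescent control and 1.06 (1.01 to 1.11) times TSA alone. Among these deacetylases, class I enzymes held an even total and class IIa enzymes did not. Summed over Hdac1, Hdac2, Hdac3 and Hdac8, class I had 228 CPM with TSA + phenamil, 238 with TSA alone, 229 in senescent control cells and 229.6 in young control cells, and its summed ratios ran from 0.959 (0.906 to 1.02) in TSA + phenamil against TSA to 1.04 (0.984 to 1.102) in TSA against senescent control. Summed over Hdac4, Hdac5 and Hdac7, class IIa had 138 CPM with TSA + phenamil, 106 with TSA alone, 110.5 in senescent control cells and 144 in young control cells. The senescent control was at 0.770 (0.714 to 0.830) times the young control. TSA alone was at 0.956 (0.880 to 1.04) times the senescent control, and TSA + phenamil was at 1.253 (1.16 to 1.35) times the senescent control and 1.31 (1.21 to 1.42) times TSA alone. The TSA + phenamil and young control libraries were high and the TSA and senescent control libraries low, with counting intervals that did not overlap between the high and the low pair. Without Hdac7, the most abundant of the 3, the ratio for TSA + phenamil against senescent control was 1.15 (0.995 to 1.33), which includes 1. Without it the ratio was 0.759 (0.661 to 0.871) for the senescent against the young control and 1.34 (1.15 to 1.57) for TSA + phenamil against TSA.

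Hdac7, the most abundant class IIa gene here and a repressor of RUNX2 activity in cell culture, had 100.5 CPM with TSA + phenamil, 77.3 with TSA alone, 77.4 in senescent control cells and 100.0 in young control cells. The 2 high and the 2 low libraries were each nearly equal. The ratio was 0.775 (0.708 to 0.848) in senescent control against young control, 0.998 (0.904 to 1.102) in TSA against senescent control, 1.297 (1.18 to 1.42) in TSA + phenamil against senescent control and 1.299 (1.18 to 1.43) in TSA + phenamil against TSA. Hdac5, which binds and restrains MEF2, had 23.6 CPM with TSA + phenamil, 15.5 with TSA alone, 20.3 in senescent control cells and 24.9 in young control cells. Its low library was that with TSA alone, at 0.763 (0.618 to 0.941) times the senescent control, and TSA + phenamil stood at 1.52 (1.24 to 1.87) times TSA. Hdac4, which restrains chondrocyte hypertrophy in mice, had 14.4 CPM with TSA + phenamil, 12.8 with TSA alone, 12.7 in senescent control cells and 18.7 in young control cells. The young control was the highest, with senescent control at 0.681 (0.546 to 0.848) times its level, and neither comparison of a treated library with the senescent control passed the rule. Hdac9, the fourth class IIa gene and below the count limit, had 12, 6, 5 and 7 counts in the TSA + phenamil, TSA, senescent control and young control libraries.

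Promoter sequences are shown for the class IIa genes as their summed level was lower in the senescent control than in the young control, for Hdac1 as a class I gene with its highest level in the TSA library, and for Sin3a, the gene that was higher with TSA. They are RefSeq sequences of the assembly GRCr8, matched by gene identifier, from 250 bases before to 50 bases after the annotated start, and not of the build mRatBN7.2 named for the counts. Each is written 5′ to 3′ on the gene's strand, with GC boxes (GGGCGG or its reverse complement CCGCCC, the core bound by Sp1) in capitals.
Hdac4, chr9:100197588-100197887 (-): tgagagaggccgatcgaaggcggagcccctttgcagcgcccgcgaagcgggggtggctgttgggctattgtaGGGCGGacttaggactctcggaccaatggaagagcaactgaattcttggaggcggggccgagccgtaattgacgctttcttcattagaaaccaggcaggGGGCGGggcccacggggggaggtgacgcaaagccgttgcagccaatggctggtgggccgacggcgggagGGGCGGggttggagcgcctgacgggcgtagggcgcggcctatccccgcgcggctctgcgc
Hdac5, chr10:87688005-87688304 (-): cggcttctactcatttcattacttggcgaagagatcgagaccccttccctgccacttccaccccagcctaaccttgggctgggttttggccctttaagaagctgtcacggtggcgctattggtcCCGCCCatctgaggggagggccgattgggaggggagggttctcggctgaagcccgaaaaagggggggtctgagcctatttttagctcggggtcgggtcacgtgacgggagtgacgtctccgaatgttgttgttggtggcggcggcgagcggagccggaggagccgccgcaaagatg
Hdac7, chr7:130840968-130841267 (-): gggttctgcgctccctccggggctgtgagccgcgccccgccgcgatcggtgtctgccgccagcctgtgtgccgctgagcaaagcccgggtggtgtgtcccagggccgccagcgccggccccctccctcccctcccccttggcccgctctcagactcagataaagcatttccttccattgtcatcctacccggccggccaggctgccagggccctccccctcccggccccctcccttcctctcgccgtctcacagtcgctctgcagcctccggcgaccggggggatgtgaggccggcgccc
Hdac1, chr5:147165338-147165637 (-): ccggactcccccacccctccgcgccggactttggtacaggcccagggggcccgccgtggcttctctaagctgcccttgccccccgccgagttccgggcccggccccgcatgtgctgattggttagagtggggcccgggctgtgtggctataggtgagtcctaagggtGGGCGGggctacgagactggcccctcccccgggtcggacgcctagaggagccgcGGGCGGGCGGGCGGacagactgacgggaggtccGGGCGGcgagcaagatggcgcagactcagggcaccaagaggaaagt
Sin3a, chr8:66381533-66381832 (+): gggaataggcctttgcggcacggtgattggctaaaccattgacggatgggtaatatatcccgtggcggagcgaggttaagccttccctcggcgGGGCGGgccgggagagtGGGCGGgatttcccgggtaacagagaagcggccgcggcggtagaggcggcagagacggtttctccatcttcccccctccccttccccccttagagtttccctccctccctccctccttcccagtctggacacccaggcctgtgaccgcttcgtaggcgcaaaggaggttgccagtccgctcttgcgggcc
In those windows there were 3 GC boxes for Hdac4, 1 for Hdac5, 0 for Hdac7, 5 for Hdac1 and 2 for Sin3a, counting both strands and overlapping matches. There were 2 CCAAT boxes (CCAAT or ATTGG) for Hdac4, 2 for Hdac5, 0 for Hdac7, 1 for Hdac1 and 1 for Sin3a. All 5 were rich in G and C, from 60.7% for Hdac5 to 72.7% for Hdac7. The window of Hdac9, the class IIa gene below the count limit, is not printed and held 37.0% G and C with 0 GC boxes. A promoter was found for 34 of the 38 listed genes, and for Kat6b and Kat7, which have several, the entry that comes first in RefSeq's table was counted. GC boxes were in 24 of 34, or 70.6%, and in 34.9% of 27456 promoters of all genes. CCAAT boxes were in 55.9%, against 37.7% of all, the ETS core CCGGAA or TTCCGG in 29.4% against 15.8%, the partial site TGACG or CGTCA of cyclic AMP response elements in 44.1% against 22.0%, and the E-box CACGTG in 8.82% against 6.65%. The median number of CG dinucleotides was 24.5 in these promoters, against 7 in all. The median G and C content was 64.3% against 52.3%. The comparison set was not limited to genes that reached the count limit in these cells. The part of G and C content and of that choice in these shares was not tested.

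Of the class I genes, Hdac1 and Hdac2 were close in level and had opposite orders. Hdac1 had 93.6 CPM with TSA + phenamil, 112 with TSA alone, 99.8 in senescent control cells and 87.7 in young control cells. The TSA library was the highest, and TSA + phenamil stood at 0.840 (0.770 to 0.916) times its level. Hdac2 had 102 CPM with TSA + phenamil, 87.9 with TSA alone, 92.3 in senescent control cells and 103 in young control cells. Here the TSA library was the lowest, and TSA + phenamil stood at 1.16 (1.06 to 1.27) times its level. Senescent control against young control was 1.14 (1.04 to 1.24) for Hdac1 and 0.895 (0.822 to 0.975) for Hdac2. All of these ratios were short of the size rule. Hdac1l, a listed near copy of Hdac1, had 0, 2, 2 and 0 counts in the TSA + phenamil, TSA, senescent control and young control libraries.

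Hdac3, the enzyme of the NCOR complex, had 24.4 CPM with TSA + phenamil, 30.1 with TSA alone, 26.3 in senescent control cells and 27.5 in young control cells. It was also highest with TSA alone, with TSA + phenamil at 0.809 (0.682 to 0.959) times that level. Hdac8, which deacetylates the cohesin subunit SMC3, had 8.38 CPM with TSA + phenamil, 8.57 with TSA alone, 10.3 in senescent control cells and 11.3 in young control cells, and none of the 4 comparisons passed the size rule. Without Hdac1, the class I ratio was 0.909 (0.845 to 0.977) in senescent against young control, so the even class total rested in part on Hdac1.

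For the class IIb and class IV genes the intervals of all 4 comparisons included 1. Hdac6, a mostly cytoplasmic tubulin deacetylase, had 14.6 CPM with TSA + phenamil, 16.5 with TSA alone, 14.5 in senescent control cells and 12.6 in young control cells, with TSA against senescent control at 1.14 (0.910 to 1.42). Hdac10, a polyamine deacetylase, was the steadiest of the 11 genes and had 7.62 CPM with TSA + phenamil, 7.26 with TSA alone, 7.35 in senescent control cells and 7.30 in young control cells. Hdac11, the only class IV enzyme and known as a remover of fatty acyl groups, had 20 counts with TSA + phenamil, 17 with TSA, 11 in the senescent control and 7 in the young control. Its ratio of 1.91 (0.871 to 4.41) in TSA + phenamil against senescent control and of 1.72 (0.758 to 4.05) in TSA against senescent control both came with intervals that included 1.

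**Figure D2:**
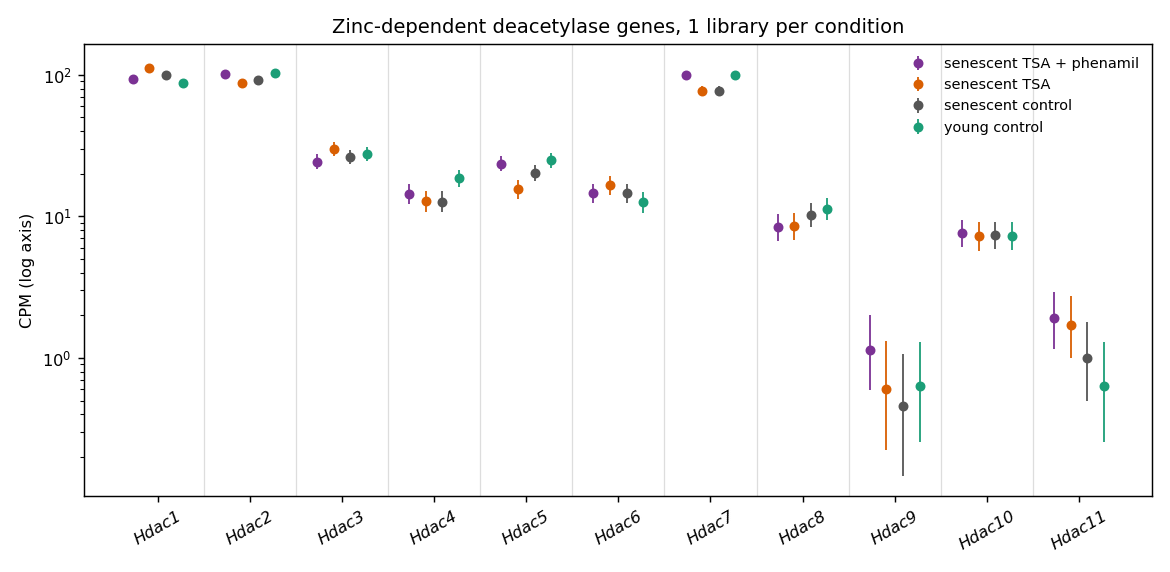
CPM on a log axis (y) of the 11 zinc-dependent deacetylase genes (x) in the 4 libraries, with exact 95% Poisson counting intervals as bars. Hdac7 lies near 100.5 CPM in the TSA + phenamil library and 100.0 CPM in the young control, above 77.3 CPM in the TSA library and 77.4 CPM in the senescent control, while Hdac1 is highest in the TSA library at 112 CPM.

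Corepressor subunits were the most abundant class, and 1 of 8 passed the size rule in any of the 4 comparisons. That gene was higher in TSA and in TSA + phenamil against the senescent control. The share was 12.5% in each, where 8.06% and 8.52% of all tested genes were higher. In senescent control against young control and in TSA + phenamil against TSA 0 of 8 passed. Of all tested genes 18.9% and 19.2% passed there in either direction. The summed level of the corepressors was 1194 CPM with TSA + phenamil, 1081 with TSA alone, 1140.5 in senescent control cells and 1204 in young control cells. TSA alone was at 0.948 (0.924 to 0.973) times the senescent control and TSA + phenamil at 1.105 (1.08 to 1.13) times TSA alone. The exception was Sin3a, the scaffold of the SIN3 deacetylase complex, which had 46.8 CPM with TSA + phenamil, 42.0 with TSA alone, 33.3 in senescent control cells and 38.0 in young control cells. Both libraries that had received TSA were higher than both that had not. However, the counting intervals of TSA alone (38.1 to 46.3 CPM) and the young control (34.4 to 41.8 CPM) overlapped. The Sin3a ratio was 1.26 (1.09 to 1.46) in TSA against senescent control and 1.40 (1.22 to 1.61) in TSA + phenamil against senescent control. In senescent control against young control it was 0.878 (0.761 to 1.01). Sin3a was the only one of the 37 genes past the rule in both comparisons of a treated library with the senescent control, which share that control.

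The NuRD complex couples deacetylation to nucleosome remodelling. Its remodeller Chd4 was the most abundant of the 37 genes and had 374 CPM with TSA + phenamil, 331 with TSA alone, 368 in senescent control cells and 416 in young control cells. The TSA library was the lowest, at 0.900 (0.860 to 0.943) times the senescent control, and the young control was the highest. Mta1, a NuRD subunit that binds Hdac1, had 258 CPM with TSA + phenamil, 210.2 with TSA alone, 253 in senescent control cells and 241 in young control cells, with TSA alone again lowest at 0.831 (0.785 to 0.880) times the senescent control and TSA + phenamil at 1.23 (1.16 to 1.3) times TSA. Its paralog Mta2 did not share that order and had 52.5 CPM with TSA + phenamil, 59.3 with TSA alone, 60.6 in senescent control cells and 65.8 in young control cells.

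Rbbp7, a histone-binding WD40 protein shared by NuRD, SIN3 and PRC2, had 214 CPM with TSA + phenamil, 210.1 with TSA alone, 192 in senescent control cells and 189.9 in young control cells, with TSA against senescent control at 1.096 (1.03 to 1.16). Its close paralog Rbbp4 had only 34, 30, 42 and 43 counts in the TSA + phenamil, TSA, senescent control and young control libraries. In the GRCr8 gene table Rbbp4 overlaps Sync, which had 1203, 1081, 1033 and 1115 counts in the same order, so reads of Rbbp4 and Sync may not be told apart and the Rbbp4 values are uncertain. Ncor1, the scaffold that activates Hdac3, had 170.4 CPM with TSA + phenamil, 146 with TSA alone, 144 in senescent control cells and 167 in young control cells. It was higher in TSA + phenamil than in the senescent control at 1.18 (1.103 to 1.26), short of the size rule. Rcor1, the CoREST scaffold, had 75.6 CPM with TSA + phenamil, 79.5 with TSA alone, 85.9 in senescent control cells and 82.0 in young control cells, and TSA + phenamil against senescent control was 0.880 (0.800 to 0.968).

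Acetyltransferase genes showed the lowest summed ratio of the 5 classes in senescent control against young control. Their summed level was 415 CPM with TSA + phenamil, 348 with TSA alone, 381 in senescent control cells and 458 in young control cells. The senescent control was at 0.831 (0.797 to 0.866) times the young control, TSA alone at 0.915 (0.875 to 0.958) times the senescent control, and TSA + phenamil at 1.09 (1.05 to 1.14) times the senescent control and 1.19 (1.14 to 1.247) times TSA alone. By the size rule 4 of 10 were lower and 1 higher in senescent control against young control, 0 passed with TSA alone, 1 was lower with TSA + phenamil against senescent control, and 2 were higher in TSA + phenamil against TSA. Over all tested genes the shares higher and lower were 9.46% and 9.42% in senescent control against young control, 8.06% and 8.08% in TSA against senescent control, 8.52% and 8.25% in TSA + phenamil against senescent control and 10.1% and 9.16% in TSA + phenamil against TSA. Without Crebbp the ratios were 0.877 (0.833 to 0.924) in senescent control against young control and 1.05 (0.991 to 1.103) in TSA + phenamil against senescent control, the second of which includes 1. The zinc-dependent deacetylases were at 0.920 (0.881 to 0.960) in senescent control against young control, and without Hdac1 at 0.857 (0.815 to 0.901). The order of these 2 classes thus depended on their most abundant members.

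Crebbp and Ep300 encode the paired coactivators CBP and p300, which acetylate histone H3 at enhancers. Crebbp had 157 CPM with TSA + phenamil, 124 with TSA alone, 133 in senescent control cells and 177 in young control cells. The senescent control stood at 0.756 (0.706 to 0.809) times the young control, and TSA + phenamil at 1.18 (1.09 to 1.26) times the senescent control and 1.27 (1.18 to 1.37) times TSA alone. Ep300 had 22.2 CPM with TSA + phenamil, 18.8 with TSA alone, 23.1 in senescent control cells and 31.9 in young control cells. It was likewise lower in the senescent control, at 0.723 (0.613 to 0.851) times the young control, but the TSA + phenamil library was at 0.962 (0.802 to 1.15) times the senescent control, an interval that includes 1. With TSA alone it was at 0.813 (0.669 to 0.986) times the senescent control.

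The MYST family members Kat6a and Kat6b, paralogs that acetylate histone H3 and are needed for skeletal development in mice, had the same order of libraries as Crebbp. Kat6a had 52.3 CPM with TSA + phenamil, 44.4 with TSA alone, 44.7 in senescent control cells and 58.3 in young control cells, with senescent control against young control at 0.766 (0.680 to 0.862). Kat6b had 68.9 CPM with TSA + phenamil, 51.9 with TSA alone, 61.4 in senescent control cells and 72.6 in young control cells, with TSA + phenamil against TSA at 1.33 (1.18 to 1.49). Kat8, which acetylates histone H4 at lysine 16, had 9.52 CPM with TSA + phenamil, 7.86 with TSA alone, 7.44 in senescent control cells and 11.3 in young control cells, with senescent control against young control at 0.661 (0.494 to 0.880). Kat7, an acetyltransferase found at replication origins, had 47.9 CPM with TSA + phenamil, 47.2 with TSA alone, 54.7 in senescent control cells and 55.6 in young control cells, and Kat5, the NuA4 enzyme of DNA repair, had 28.2 CPM with TSA + phenamil, 27.7 with TSA alone, 26.2 in senescent control cells and 27.6 in young control cells. Neither passed the rule in any of the 4 comparisons.

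Hat1, a cytoplasmic enzyme that acetylates newly made histone H4 before deposition, was the 1 acetyltransferase gene past the rule on the higher side in the senescent control. It had 19.7 CPM with TSA + phenamil, 17.1 with TSA alone, 18.2 in senescent control cells and 13.8 in young control cells, and senescent control against young control was 1.32 (1.06 to 1.64). Kat2a, the SAGA acetyltransferase, had 8.57 CPM with TSA + phenamil, 7.86 with TSA alone, 8.81 in senescent control cells and 8.11 in young control cells and passed the rule in none of the 4 comparisons. Its paralog Kat2b had 12, 18, 28 and 26 counts in the TSA + phenamil, TSA, senescent control and young control libraries, a ratio of 0.450 (0.208 to 0.913) in TSA + phenamil against senescent control.

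Sirtuin genes differed in both directions and their sum was nearly even, at 120.4 CPM with TSA + phenamil, 117 with TSA alone, 117 in senescent control cells and 124 in young control cells. Sirt6, a chromatin-bound sirtuin linked to DNA repair and ageing, had 30.5 CPM with TSA + phenamil, 24.1 with TSA alone, 26.0 in senescent control cells and 34.6 in young control cells. Senescent control against young control was 0.750 (0.641 to 0.876) and TSA + phenamil against TSA was 1.26 (1.07 to 1.502). Sirt7, which acts in the nucleolus, was instead lowest in the young control and had 4.76 CPM with TSA + phenamil, 5.95 with TSA alone, 6.81 in senescent control cells and 3.79 in young control cells, and senescent control against young control was 1.80 (1.22 to 2.69). That was 75 against 42 counts.

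Sirt1, the best known nuclear sirtuin, had 9.62 CPM with TSA + phenamil, 11.5 with TSA alone, 11.9 in senescent control cells and 14.9 in young control cells. The young control was highest and TSA + phenamil lowest, though senescent control against young control was 0.800 (0.631 to 1.01) and TSA + phenamil against senescent control 0.809 (0.618 to 1.06), both with 1 in the interval. The mitochondrial sirtuin gene Sirt4 had 56, 28, 38 and 58 counts in the TSA + phenamil, TSA, senescent control and young control libraries. TSA + phenamil was at 1.89 (1.18 to 3.09) times TSA and 1.55 (1.01 to 2.40) times the senescent control, the second with its lower bound just above 1. The mitochondrial Sirt3 had 4.57 CPM with TSA + phenamil, 5.14 with TSA alone, 5.72 in senescent control cells and 4.33 in young control cells. Sirt5, a mitochondrial desuccinylase, had 36.8 CPM with TSA + phenamil, 37.5 with TSA alone, 31.7 in senescent control cells and 32.6 in young control cells, with TSA against senescent control at 1.18 (1.02 to 1.37). Sirt2, a mostly cytoplasmic deacetylase of tubulin, had 28.9 CPM with TSA + phenamil, 30.1 with TSA alone, 31.5 in senescent control cells and 28.3 in young control cells and passed the rule in none of the 4 comparisons.

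Of the readers, Brd3 was lower in the senescent control and Brd2 was not. Both are BET proteins, whose paired bromodomains bind acetylated histones. Brd3 had 88.7 CPM with TSA + phenamil, 82.6 with TSA alone, 77.2 in senescent control cells and 103 in young control cells, and senescent control against young control was 0.746 (0.682 to 0.816). Brd2 had 97.4 CPM with TSA + phenamil, 106 with TSA alone, 111 in senescent control cells and 107 in young control cells, with the same comparison at 1.04 (0.956 to 1.12), an interval that lies wholly above that of Brd3. With TSA + phenamil against senescent control, Brd3 was at 1.15 (1.05 to 1.26) and Brd2 at 0.880 (0.809 to 0.957), on opposite sides of 1. Brd3os, whose name marks it as the opposite strand of Brd3, had 51, 50, 82 and 53 counts in the TSA + phenamil, TSA, senescent control and young control libraries. The labels do not say whether strand was used in counting.

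**Figure D3:**
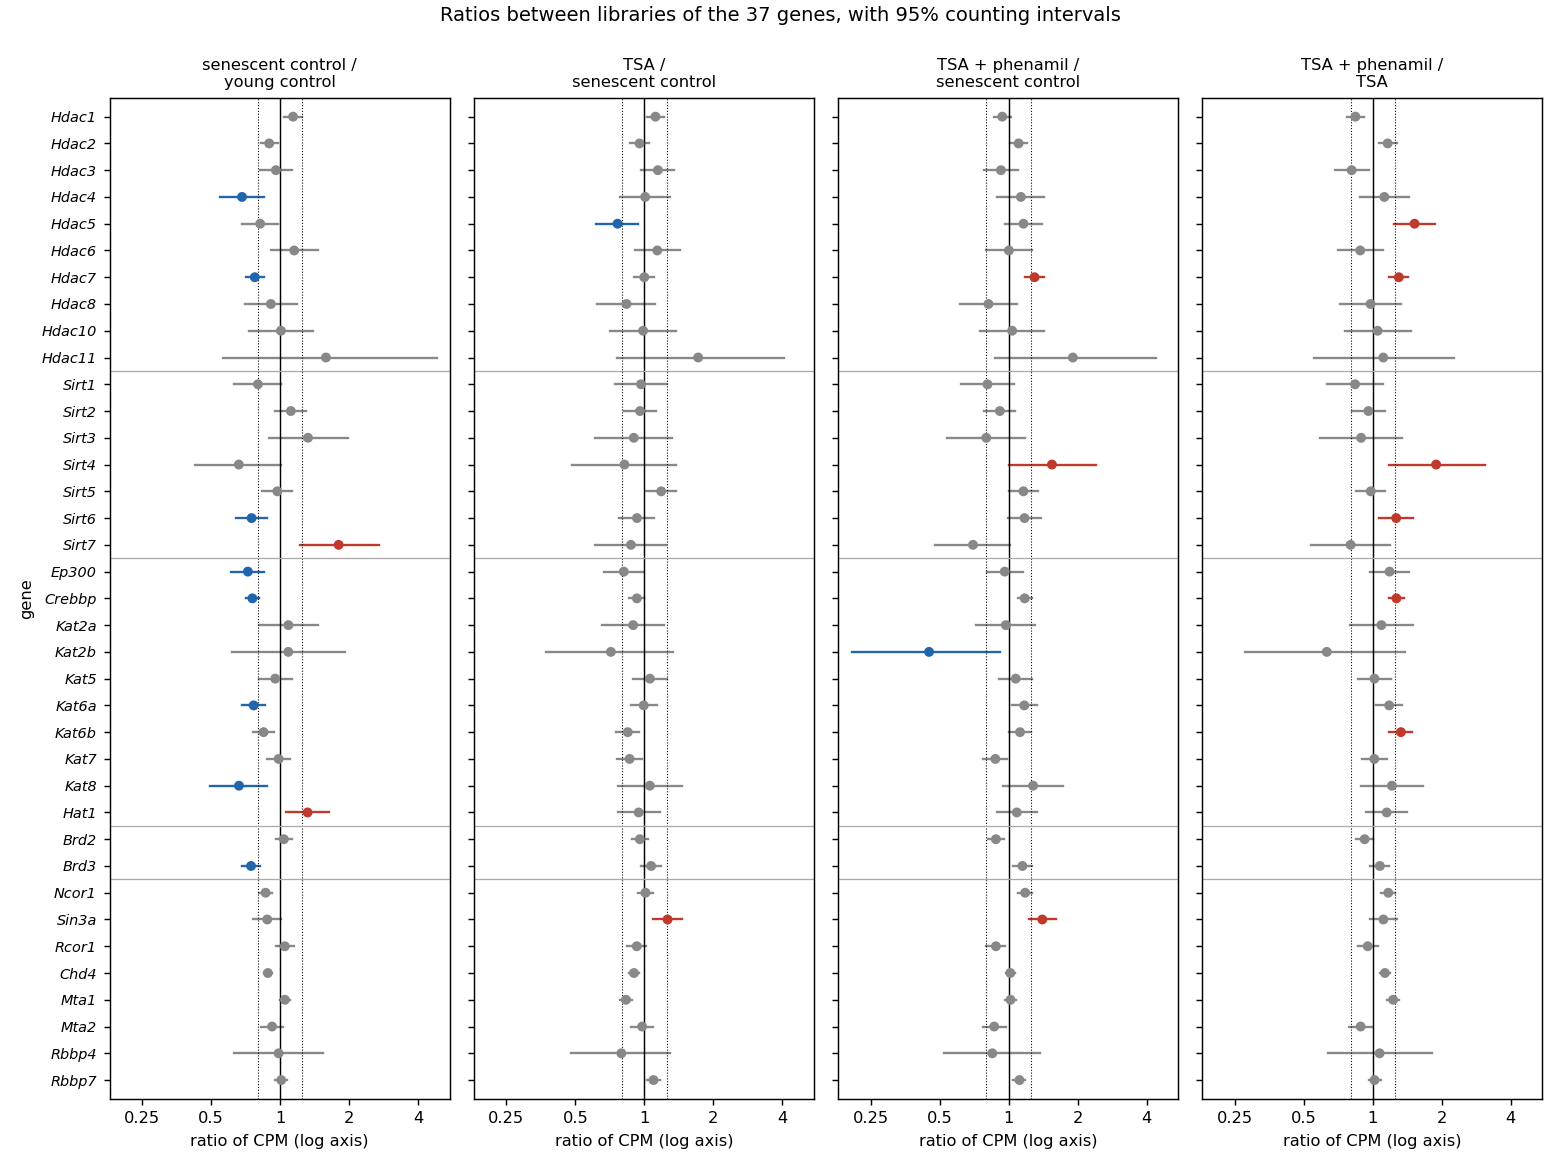
Ratio of CPM between 2 libraries (x, log axis) for each of the 37 genes (y, grouped by class with grey rules between), 1 panel per comparison, with exact 95% counting intervals as lines. Red and blue mark genes past the size rule, higher and lower in the library named first, and dotted lines mark the 25% limits. In the first panel 8 genes are blue and 2 red, and in the last 6 are red and 0 blue.

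**Figure D4:**
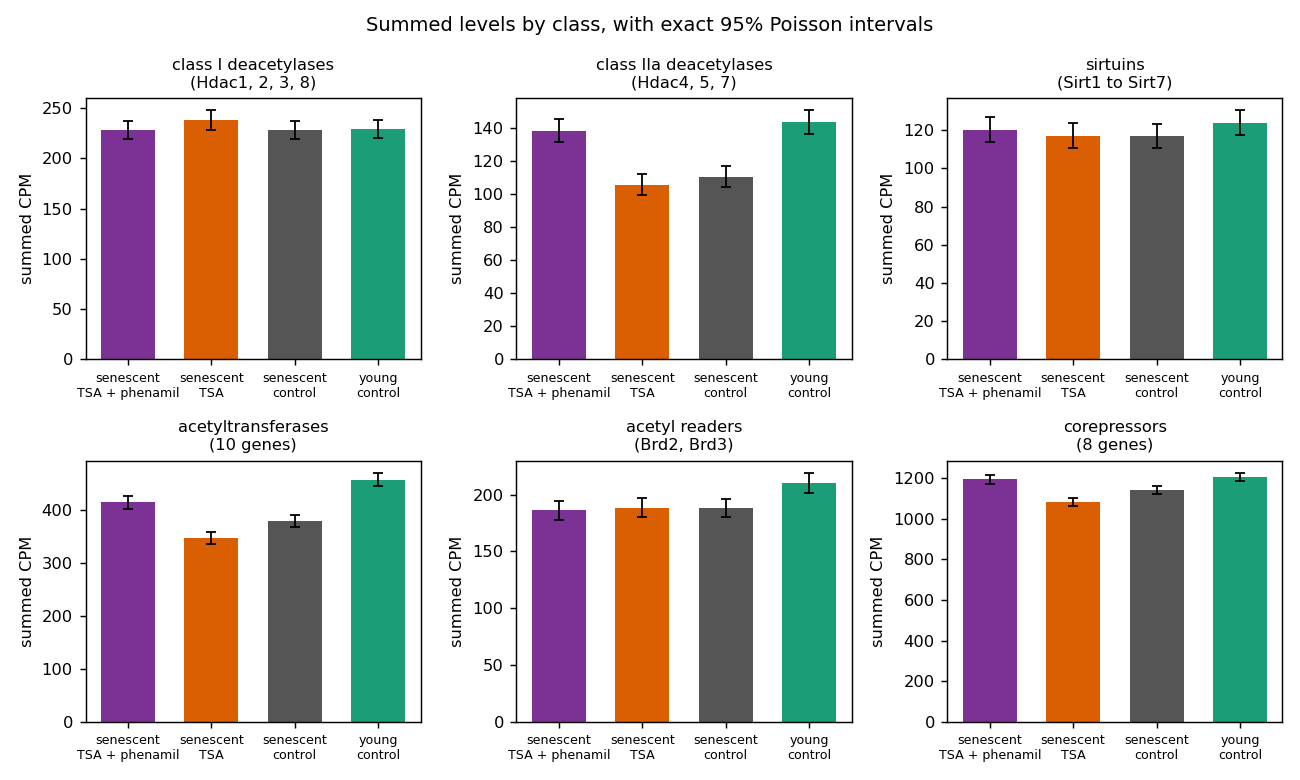
Summed CPM (y) of each class in the 4 libraries (x), with exact 95% Poisson intervals. Class IIa is at 138 CPM in the TSA + phenamil library and 144 in the young control, above 106 in the TSA library and 110.5 in the senescent control, while class I stays between 228 and 238 CPM.

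Partner subunits of the same complexes were counted in the same way. Of 28 further deacetylase complex subunits, 1 was higher and 3 lower in senescent control against young control, 1 was higher and 0 lower with TSA alone against senescent control, 1 was higher and 1 lower with TSA + phenamil against senescent control, and 3 were higher and 2 lower with TSA + phenamil against TSA. The share lower in senescent control against young control was 10.7%, near the 9.42% of all tested genes, and the share higher in TSA + phenamil against TSA was 10.7%, near the 10.1% of all. In TSA against senescent control 8.06% of all were higher and 8.08% lower, and in TSA + phenamil against senescent control 8.52% and 8.25%. The one higher with TSA was Sap30l, which encodes a SIN3 complex subunit and had 47.4 CPM with TSA + phenamil, 48.4 with TSA alone, 37.5 in senescent control cells and 41.7 in young control cells. It was at 1.29 (1.13 to 1.48) times the senescent control with TSA and at 1.26 (1.11 to 1.44) with TSA + phenamil. Sap30, the paralog of Sap30l, had 10.7 CPM with TSA + phenamil, 14.2 with TSA alone, 15.7 in senescent control cells and 10.5 in young control cells, and was past the rule on the lower side in TSA + phenamil against senescent control at 0.679 (0.531 to 0.866). Suds3 was at 0.911 (0.812 to 1.02) and Sap130 at 0.815 (0.633 to 1.05) times the senescent control with TSA, short of the rule. The scaffold paralog Sin3b had 108 CPM with TSA + phenamil, 116 with TSA alone, 112 in senescent control cells and 114 in young control cells, with TSA against senescent control at 1.04 (0.956 to 1.12). Sap30, Suds3, Sap130 and Sin3b were named after their values were seen.

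Of 39 further acetyltransferase complex subunits, 3 were higher and 4 lower in senescent control against young control, 2 higher and 4 lower in TSA against senescent control, 2 higher and 1 lower in TSA + phenamil against senescent control, and 4 higher and 1 lower in TSA + phenamil against TSA. The shares higher and lower were 7.69% and 10.3% in senescent control against young control, where they were 9.46% and 9.42% of all tested genes, and 5.13% and 10.3% in TSA against senescent control, where they were 8.06% and 8.08%. With TSA + phenamil they were 5.13% and 2.56% against the senescent control, where they were 8.52% and 8.25% of all, and 10.3% and 2.56% against TSA, where they were 10.1% and 9.16%. Tada2a, an adaptor of the ATAC complex, was at 1.28 (1.13 to 1.45) and the NuA4 subunit gene Mrgbp at 1.49 (1.12 to 2.01) times the senescent control with TSA. Epc1, a NuA4 scaffold, was at 0.655 (0.535 to 0.801) and Brd1, which guides Kat7 and Kat6a complexes, at 0.733 (0.660 to 0.814).

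Among 19 other bromodomain and YEATS readers, 15 had ratios below 1 in senescent control against young control, where 49.4% of all tested genes had, and 1 passed the rule, where 18.9% of all did. In TSA + phenamil against senescent control 15 had ratios above 1, where 49.9% of all tested genes had, and 0 passed in either direction, where 16.8% of all tested genes passed. In TSA against senescent control 1 was higher (5.26%) and 2 lower (10.5%), where 8.06% and 8.08% of all were. In TSA + phenamil against TSA 4 were higher (21.1%) and 1 lower (5.26%), where 10.1% and 9.16% of all were. Mllt1, a YEATS protein of the super elongation complex, had 11.1 CPM with TSA + phenamil, 16.8 with TSA alone, 8.72 in senescent control cells and 13.1 in young control cells, and TSA stood at 1.93 (1.49 to 2.51) times the senescent control. Baz1b, a bromodomain protein of the WICH remodeller, was at 0.727 (0.675 to 0.782) and the coregulator gene Trim24 at 0.714 (0.602 to 0.846) in that comparison.

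Genes that supply acetyl-CoA to acetyltransferases and NAD to sirtuins, or use up NAD, were mostly above 1 in the senescent control against the young control. Of 11 tested, 5 were higher and 0 lower in senescent control against young control, with a median log2 ratio of 0.37 against 0.00 over all tested genes. With TSA alone 0 passed in either direction, with TSA + phenamil against senescent control 0 were higher and 4 lower, and against TSA 0 were higher and 3 lower. Of all tested genes 9.46% were higher and 9.42% lower in senescent control against young control, 16.1% passed either way in TSA against senescent control, and 8.25% and 9.16% were lower with TSA + phenamil against senescent control and against TSA. The 5 higher in the senescent control, named after their values were seen, were the acetyl-CoA synthetase gene Acss2 at 1.58 (1.17 to 2.15), the pyruvate dehydrogenase subunit gene Pdha1 at 1.36 (1.22 to 1.53), the NAD synthesis gene Nmnat1 at 1.42 (1.07 to 1.89), and the NAD-consuming Cd38 at 1.52 (1.104 to 2.10) and Parp1 at 1.29 (1.14 to 1.47). The 4 lower with TSA + phenamil against senescent control were the ATP citrate lyase gene Acly at 0.780 (0.714 to 0.851), the citrate carrier gene Slc25a1 at 0.774 (0.699 to 0.856), Nmnat1 at 0.685 (0.511 to 0.914) and Parp1 at 0.797 (0.702 to 0.903). Both comparisons use the senescent control. Acly had 83.8 CPM with TSA + phenamil, 97.3 with TSA alone, 108 in senescent control cells and 96.7 in young control cells. The TSA + phenamil library was the lowest of the 4 for Acly and for Slc25a1, which had 63.4 CPM with TSA + phenamil, 80.9 with TSA alone, 82.0 in senescent control cells and 72.6 in young control cells.

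Among 18 proliferation genes, 0 were higher and 2 lower in senescent control against young control, where 9.46% and 9.42% of all tested genes were, and 5 were higher and 2 lower in TSA against senescent control, where 8.06% and 8.08% were. In TSA + phenamil 1 was higher and 1 lower against the senescent control, where 8.52% and 8.25% of all were, and 2 were higher and 3 lower against TSA, where 10.1% and 9.16% were. The proliferation gene Mki67 had 32.7 CPM with TSA + phenamil, 27.8 with TSA alone, 35.4 in senescent control cells and 38.6 in young control cells. Those farthest from 1 in TSA against senescent control were Aurkb, a mitotic kinase gene, at 2.78 (1.91 to 4.11) and the thymidylate synthase gene Tyms at 1.59 (1.32 to 1.92) on the high side, and the mitotic kinase gene Plk1 at 0.737 (0.633 to 0.857) and Mki67 at 0.786 (0.671 to 0.919) on the low side. Pcna, the replication clamp gene, had 33.6 CPM with TSA + phenamil, 38.4 with TSA alone, 30.1 in senescent control cells and 30.9 in young control cells, the topoisomerase gene Top2a had 71.6 CPM with TSA + phenamil, 58.4 with TSA alone, 63.6 in senescent control cells and 72.4 in young control cells, and the lamin gene Lmnb1 had 33.6 CPM with TSA + phenamil, 32.3 with TSA alone, 32.9 in senescent control cells and 36.2 in young control cells. Senescent control against young control was 0.907 (0.785 to 1.05) for Lmnb1, 0.918 (0.798 to 1.06) for Mki67 and 0.991 (0.938 to 1.05) for Cdkn1a. Each of these intervals includes 1.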

How the data were processed

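Counts per gene of 4 libraries were used as the authors deposited them, as raw whole-number counts per the file headers. The deposited log2 values are normalized data per the file headers, and were recovered within 0.000545 by scaling each library's counts by a single factor, adding 1 and taking log2. Per the submitters' processing notes the tools include HTSeq 2.0.2 and STAR 2.7.10b, with mRatBN7.2 as genome build. Annotation, strand and duplicate handling were not stated there or in the labels. Per the labels' protocols the reads were single-end from a QuantSeq 3′ kit, and since PCR copies cannot be told from molecules in such reads, intervals cover counting error only.

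Counts were scaled by TMM (edgeR 4.0.16, R 4.3.3) over 12228 genes (35.9%) with at least 40 counts. With 1 library per group edgeR's quasi-likelihood test has no residual degrees of freedom and was not run. Ratios received exact conditional binomial (Clopper-Pearson) 95% intervals and sums exact Poisson intervals (scipy 1.17.1, Python 3.11.15). The ratio intervals and the size rule were tested on simulated counts of single genes, and the Poisson intervals were not. A count of 0 allows up to 3 counts. All members were described, the deacetylases and members past the size rule in full. From each list of partner genes up to 2 per direction were named by their interval bound in TSA against senescent control. The members and lists were chosen with earlier results of these data known. Alternatives were the size factors of DESeq2 1.42.0, scaling by total counts, leaving mitochondrial and ribosomal protein genes out of TMM, other filters and folds, the ratio without its interval, cultures assumed to vary with a coefficient of variation of 0.1, libraries thinned to equal depth, and the deposited log2 values. The gene and promoter tables are of the assembly GRCr8, in which all 38 listed genes were found. Of the listed partner genes, Taf5l had no row.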

Additional observations from a re-analysis of the deposited data

How the results depend on the processing

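No ratio of the 37 genes past the size rule changed direction under the other scalings, thinning, the assumed variation or the deposited log2 values. All 888 recomputed ratios stayed inside the reported counting intervals. The assumed coefficient of variation alters intervals only, so its ratios among the 888 could not move. The deposited log2 values use scaling factors at 0.99866 to 1.001 times those used here, so their ratios had little room to move. The other scalings also lay close to TMM, whose factors on the total counts were 0.980 to 1.017. A ratio past the size rule therefore could not change direction under them. Class medians did not leave the interval of their middle member under the alternatives run for them. Counts of members past the rule, both directions pooled, were within 1.5 times those reported under the other scalings, thinning and no filter. With a filter of 200 counts, 2 passed in TSA + phenamil against senescent control, where 4 were reported and 15.8% of all genes passed. Of the 37 genes, in the order senescent against young control, TSA against senescent control, TSA + phenamil against senescent control and TSA + phenamil against TSA, 16, 9, 16 and 14 passed at 1.1-fold (27.6% to 31.9% of all tested genes), 2, 0, 2 and 2 at 1.5-fold (7.62% to 9.40% of all), and 5, 0, 2 and 2 with an assumed coefficient of variation of 0.1 (8.42% to 10.3% of all). Without the interval, 5 passed in TSA against senescent control and 8 in TSA + phenamil against senescent control, and 5 and 7 by the deposited log2 values, where 29.1% and 29.4% of all genes passed either way. Sums without the most abundant member of each class were added after the data were seen. Without Hdac1 the ratio of all deacetylases was 0.857 in senescent against young control, 1.13 in TSA + phenamil against senescent control and 1.15 against TSA. Without Hdac1 that of class I was 0.909, 0.982 in TSA against senescent control and 1.07 in TSA + phenamil against TSA. Without Hdac7 that of class IIa was 0.857 in TSA against senescent control and 1.15 in TSA + phenamil against senescent control. In senescent against young control the ratio of acetyltransferases was 0.877 without Crebbp and that of corepressors 0.981 without Chd4. Leaving out a replicate was not possible with 1 library per group, and the variation between cultures is not known. Depth limits the genes with few counts most, among them Hdac11 with 55 and Kat2b with 84.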
